A study of Mus musculus with 16 samples.

Results

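Rbp4 and Ttr encode the carriers that bring vitamin A through the blood, and their RNA levels were compared here between 2 organs, kidney and liver. The animals were 3 wildtype males of the inbred strain C3HeB/FeJ. The genes were chosen by name. On a cDNA array of 20419 probes, 1 probe had the single symbol Rbp4 and 2 probes had the single symbol Ttr, so the members were 2 of 9669 named genes and 3 of the 20419 probes. No probe with several symbols held either name. The mice were 105 ± 5 days old and carried no allele or treatment beyond the wildtype strain, per the labels. RNA came from the left kidney and the dorsal liver lobe. The study used 16 hybridisations in 2 colours. On 7 kidney arrays the kidney of mouse 1, 2 or 3 (3, 3 and 1 hybridisations) was hybridised with pooled liver RNA of 5 animals, and on 9 liver arrays the liver of the same mice (3 hybridisations each) was hybridised with pooled kidney RNA of 5 animals. Whether the 3 mice were also in the pools is not stated. Repeated hybridisations share 1 RNA, so the replicates are the 3 mice, and their number limits the precision.

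Retinol-binding protein 4 is a small lipocalin that takes up retinol in the hepatocyte and carries it out into plasma. There it rides on transthyretin, a tetramer that also carries thyroxine, and the larger complex is held back from filtration in the glomerulus. What is filtered in the kidney is taken back up by the proximal tubule through the endocytic receptors megalin and cubilin. Liver is the textbook main source of both proteins in plasma. Adipose tissue is a known further source of Rbp4, and the choroid plexus of Ttr.

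The 250 bases before the downstream of the 2 starts listed for Rbp4 are shown. The set of promoters used held no entry for Ttr. They are from RefSeq (GRCm38.p6, chr19:38124812-38125061, minus strand, printed 5′ to 3′ along the gene). Capitals mark the motifs found.

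Rbp4 promoter: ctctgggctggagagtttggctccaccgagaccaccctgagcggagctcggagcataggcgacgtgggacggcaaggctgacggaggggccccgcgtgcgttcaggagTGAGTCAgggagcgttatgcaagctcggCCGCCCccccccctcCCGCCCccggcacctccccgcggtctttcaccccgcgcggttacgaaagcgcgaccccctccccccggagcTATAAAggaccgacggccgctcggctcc

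The window is rich in G and C, at 70.8% against a median of 52.4% over the same 250 bases of 32851 promoters. Searched on both strands, it held TATAAA, the letters of a TATA box, from base -28 to -23 before the start, and 12.4% of all promoters did. It held CCGCCC, a GC box, at 2 places that start at -114 and -99, where 32.7% of promoters held at least 1. TGAGTCA, the AP-1 motif, lay from -142 to -136, and 4.46% of promoters held it. The motifs did not overlap. CAAAGTCCA, a form of the HNF4 motif, and the palindromic HNF1 motif had no match in this window, and were found in 0.384% and 0.0091% of promoters. A match of letters is not a measured binding site.

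Levels are given as the log2 of the kidney signal over the liver signal, so that a value of -1 is a level in kidney of 0.5 times that in liver. The labels do not say which channel was the numerator. In the titles the single animal stands first and the pool second, while the signs of organ marker genes ran the other way. Albumin (Alb), the liver's main plasma protein, had a mean deposited value of 8.44 where the kidney was the single mouse's and -7.57 where the liver was. Kap, the kidney androgen-regulated protein, had -5.77 and 6.08. Of 15 hepatocyte markers without Rbp4 and Ttr, 15 were positive on the kidney arrays but 0 were so on the liver arrays, and of 8 proximal tubule markers 0 and 8. The sign was therefore turned on the kidney arrays and kept on the liver arrays. With the order of the titles, kidney and liver would be exchanged in every sentence below with the same sizes and tests. These markers set the direction and are not independent evidence of it. Between 15480 and 19432 probes had a value on an array. The array median lay between -0.0027 and -0.0006 on the 10 arrays of mice 1 and 3, but between -1.49 and -1.19 on the 6 arrays of mouse 2. Values were used as deposited. Centring each array on its median raised the fitted ratios of genes in general, with the median of all genes moving from -0.48 to -0.05. For genes named under the rule given with the processing, centred values are given where a call or a direction changed. Listed genes that are not named changed calls too, as the counts for retinol genes below show.

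Rbp4 had a far lower level in kidney than in liver. On the 7 kidney arrays its log2 ratio ran from -7.32 to -5.86 with a median of -7.04, and on the 9 liver arrays from -7.43 to -6.89 with a median of -7.31. The kidney averages of mice 1, 2 and 3 were -6.93, -6.73 and -7.24. Their liver averages were -6.99, -7.26 and -7.37. All 16 arrays lay on the liver side, from 58.3-fold to 172-fold, and the kidney and liver arrays overlapped. The weakest value, -5.86, came from 1 of the 3 kidney hybridisations of mouse 2, which ranged down to -7.32. In RNA of tissue, fewer cells of a type and less RNA per cell cannot be told apart.

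Fitted over the 6 averages, the Rbp4 probe was 136-fold higher in liver (-7.09, SE 0.21, 95% confidence interval -7.56 to -6.61, adjusted p = 9.03e-07, limma with Benjamini-Hochberg adjustment). It was the 21st lowest of 18670 probes tested, and Rbp4 was the 15th lowest of 9047 genes. On single arrays, between 0.0303% and 0.322% of the probes with a value lay below it. The order of probes within an array does not depend on centring.

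Ttr, measured by probes 19 and 2235 of the array, also had a lower level in kidney, by less than Rbp4. On probe 19 the log2 ratio ran from -4.62 to -3.37 on the kidney arrays (median -3.99) and from -4.15 to -2.65 on the liver arrays (median -3.57). Its averages were -3.70, -4.04 and -4.62 for the kidneys of mice 1, 2 and 3, and -3.22, -4.06 and -3.35 for their livers. On probe 2235 it ran from -3.06 to -1.49 on the kidney arrays (median -2.56) and from -3.59 to -2.13 on the liver arrays (median -2.43). The averages of probe 2235 were -2.03, -2.64 and -3.06 for the kidneys and -2.27, -2.42 and -3.30 for the livers. Every array put both probes on the liver side, and kidney and liver arrays overlapped on each probe.

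**Figure D1:**
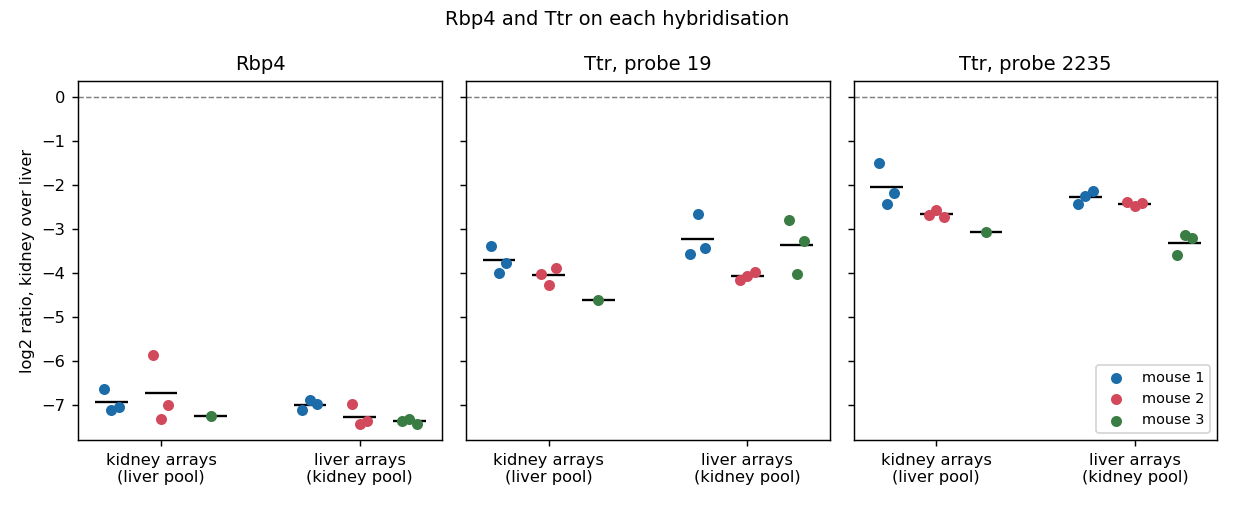
Log2 ratio of kidney over liver (y axis) on each of 16 hybridisations for the Rbp4 probe and Ttr probes 19 and 2235, by array kind (x axis) and mouse (colour); points are hybridisations and black bars the mean of a mouse and organ. All points lie below 0, with Rbp4 between -7.43 and -5.86 and Ttr between -4.62 and -1.49.

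Ttr was 14.2-fold higher in liver on probe 19 (-3.83, SE 0.24, 95% confidence interval -4.37 to -3.29, adjusted p = 1.96e-05, limma) and 6.15-fold on probe 2235 (-2.62, SE 0.25, interval -3.19 to -2.05, adjusted p = 0.000235, limma). They were the 126th and 242nd lowest of the 18670 probes. With both probes averaged, Ttr was 9.36-fold higher in liver (-3.23, SE 0.22, adjusted p = 2.41e-05, limma) and the 105th lowest of the 9047 genes. Between 0.561% and 1.65% of the probes of an array lay below probe 19, and between 0.995% and 3.93% below probe 2235.

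All 3 member probes passed the test, where 12.6% of the 18670 probes passed, 7.45% toward liver and 5.18% toward kidney. Over probes in general, both averages of a mouse tended to deviate together. On Ttr probe 19, mouse 3 had the lowest kidney average (-4.62) but its liver average (-3.35) lay above the liver arrays' estimate (-3.54). The fit over 6 averages takes the averages as independent, so its errors of the organ ratio tend to be too small. With 1 average per mouse as the replicate block (n = 3), 968 of 18508 probes passed in place of 2358 of 18670. These 968 were 5.23% of the probes, with 2.91% toward liver and 2.32% toward kidney, and all 3 member probes were again among those toward liver. Over genes that fit called 7.6% of 8984, with 4.78% toward liver and 2.83% toward kidney, and Rbp4 and Ttr were called. The intervals were then wider, from -8.07 to -6.10 for Rbp4, from -4.82 to -2.85 for Ttr probe 19 and from -3.61 to -1.64 for probe 2235. In that fit limma gave each of the 3 probes an SE of 0.50, near equal because each variance was drawn to that of all probes. The wider intervals therefore do not measure each probe's own spread between mice. With mouse as a fixed replicate block in place of averaging, 82.2% of 7514 genes passed, 64.7% toward liver and 17.5% toward kidney, with Rbp4 and Ttr among those toward liver. A gene called by the block alone therefore shares its call with most genes of the array.

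**Figure D2:**
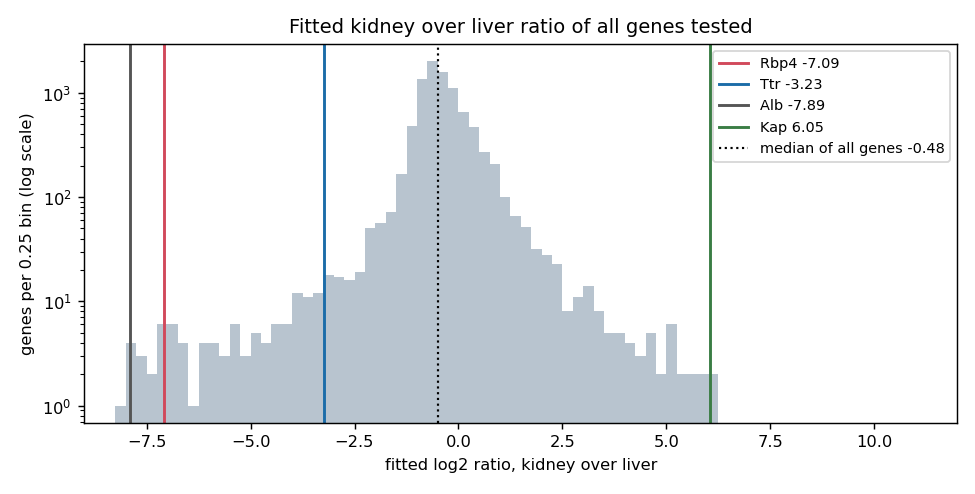
Number of genes (y axis, log scale) by fitted log2 ratio of kidney over liver (x axis, bins of 0.25) for the 9047 genes tested, with coloured lines at Rbp4, Ttr, Alb and Kap and a dotted line at the median of all genes. Rbp4 (-7.09) lies near Alb (-7.89) at the liver end, and Ttr (-3.23) lies between them and the median of -0.48.

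The organ ratio of Rbp4 was set against that of Ttr within each array, which leaves array medians out of the comparison. Rbp4 was lower than the mean of both Ttr probes on all 16 arrays, with differences from -4.44 to -2.53 on the log2 scale. The difference was -4.06, -3.38 and -3.40 on the kidney arrays of mice 1, 2 and 3 and -4.25, -4.02 and -4.04 on their liver arrays. Averaged per mouse it was -3.86 ± 0.26 (SD, n = 3 mice). The liver excess on the Rbp4 probe was thus 14.5 times that on the Ttr probes averaged. The exact two-sided sign-flip permutation test over the 3 mice gave p = 0.25, which is the smallest it can give, and all 3 mice had the same sign. Against Ttr probe 19 alone the difference was -3.25 ± 0.29 (SD, n = 3 mice, the same direction in 3 of 3), a factor of 9.54. Whether the size of these factors belongs to the genes or to their probes was not tested. This compares ratios between organs, not the amounts of Rbp4 and Ttr RNA.

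The Ttr probes differed from each other in size. Probe 19 was below probe 2235 on 15 of 16 arrays. Their difference on the kidney arrays was -1.67, -1.40 and -1.56 for mice 1, 2 and 3. On the liver arrays it was -0.95, -1.64 and -0.05. It ran from -0.88 to 0.81 over the 3 liver hybridisations of mouse 3, where the probes did not differ beyond their spread. Averaged per mouse it was -1.21 ± 0.37 (SD, n = 3 mice, all 3 of the same sign), and the exact permutation p was 0.25, the smallest possible. The means of Ttr above therefore lie between unequal probes. No value recurred exactly on its array for Rbp4 or either Ttr probe over the 16 arrays, whereas the median probe had 57.1% recurring values. A value counts as recurring where another probe of the array has exactly the same one. A probe with a recurring share above 0.5 was treated as dim, without intensities to check this.

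No member passed the test between the 2 kinds of array. The fitted difference of the organ ratio, kidney arrays minus liver arrays, was 0.24 (SE 0.41) for Rbp4, -0.58 (SE 0.47) for Ttr probe 19 and 0.08 (SE 0.50) for probe 2235, each with an adjusted p of 1 (limma). Of all 18670 probes 0% passed, while 46 (0.246%) had an unadjusted p under 0.05. That is far fewer than this threshold lets through where no probe differs. Deviations shared by both averages of a mouse stay in the error of this fit, so it was too strict for this comparison. With mouse as a replicate block, 25 of 14688 probes passed and no member did, with adjusted p of 0.699, 0.520 and 0.906 (limma). The errors of the fit without the block leave room for a difference of the size measured on probe 19.

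Mice were compared within an organ over single hybridisations, which tests 1 RNA extract per mouse and organ and not a population of mice. On the kidney arrays both Ttr probes passed (adjusted p = 0.0467 for probe 19 and 0.0329 for probe 2235, limma moderated F) and Rbp4 did not (0.602), where 72.4% of 11482 probes passed. On the liver arrays probe 2235 passed (adjusted p = 0.000284, limma) and probe 19 (0.0561) and Rbp4 (0.0921) did not, where 85.4% of 12118 probes passed. With most probes called, these calls say nothing particular to the members. On probe 2235 the kidney over liver ratio of mouse 3 was 1.03 lower than that of mouse 1 on both kinds of array. On probe 19 this ratio was 0.91 lower in mouse 3 on the kidney arrays and 0.13 lower on the liver arrays. The kidney values of mouse 3 rest on 1 hybridisation and have no spread of their own. A lower ratio means less signal in the kidney of mouse 3 on the kidney arrays, but more in its liver on the liver arrays.

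Mouse 2 showed what the array medians do to these levels. As deposited, its averages of -6.73 and -7.26 for Rbp4 lay close to those of the other mice, from -7.37 to -6.93. After centring they were -5.36 and -5.92, above the other 4, from -7.36 to -6.93. For Ttr probe 19 the centred averages of mouse 2 were -2.67 and -2.72, and for probe 2235 -1.27 and -1.08, the 2 highest of the 6 averages on each probe. Centring shifts all probes of an array alike. On the liver arrays the difference of mouse 2 from mouse 1 went from -0.27 to 1.07 for Rbp4, from -0.84 to 0.49 for Ttr probe 19 and from -0.15 to 1.19 for probe 2235. On the kidney arrays it went from 0.20 to 1.57 for Rbp4, from -0.34 to 1.03 for probe 19 and from -0.61 to 0.76 for probe 2235. Centred, Rbp4 passed between mice on the kidney and the liver arrays (adjusted p = 0.0063 and 6.68e-05, limma), where 56.8% and 50% of probes passed. The part of the normalisation of mouse 2 in these differences was not tested. All member values stayed below 0 on the 16 arrays after centring.

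**Figure D3:**
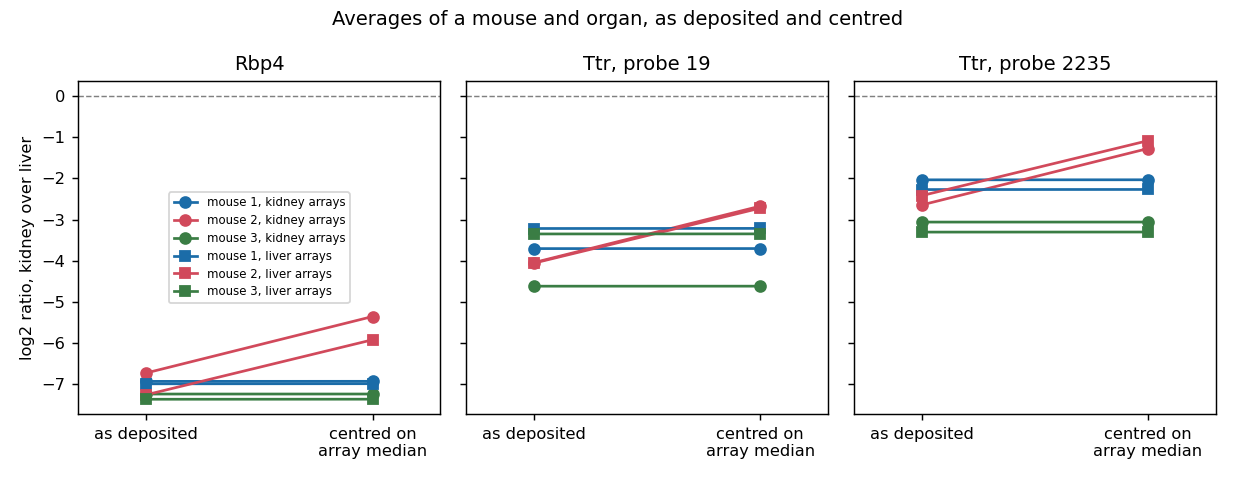
Mean log2 ratio of kidney over liver (y axis) of each mouse and organ, as deposited and after centring each array on its median (x axis), for Rbp4 and the Ttr probes; circles are kidney arrays, squares liver arrays, and colours mice. The lines of mouse 2 rise, from -6.73 to -5.36 and from -7.26 to -5.92 for Rbp4, and the other lines are flat.

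The genes most like Rbp4 over the arrays were all known as hepatocyte genes. By the root mean square difference of the log2 ratio over 16 arrays, among 7820 other genes with values on at least 14 arrays, the 5 nearest were Tat (tyrosine aminotransferase; 0.43), F2 (prothrombin; 0.51), Fabp1 (liver fatty acid binding protein; 0.52), Mat1a (methionine adenosyltransferase; 0.54) and Serpinc1 (antithrombin; 0.54). Their fitted ratios lay between -7.17 and -6.80. Those nearest to Ttr were of other kinds, namely Sema4g (a semaphorin; 0.32), Fabp5 (a fatty acid binding protein; 0.38), Nr1d1 (the clock repressor Rev-erb alpha; 0.38), Dydc2 (0.39, over 15 arrays) and B2m (beta-2 microglobulin, the light chain of MHC class I; 0.40), with fitted ratios from -3.26 to -2.99. Rbp4 and Ttr stood 3.94 apart by the same measure. The measure is one of size and noise together and says nothing of shared control.

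Other plasma proteins that carry or bind a partner were mostly higher in liver. The list mixes carriers of small molecules and lipid with binders of proteins, such as haptoglobin and the Igfbp proteins. Alb, Ahsg and Hpx of this list were also among the markers that set the direction. Of 25 listed, 21 were tested, of which 13 passed toward liver and 2 toward kidney, with a median of -4.13, against 803 and 503 of the 9047 genes (8.88% and 5.56%) with a median of -0.48. The 4 largest were Ahsg (fetuin-A, a carrier of mineral; -8.01), Alb (-7.89), Hp (haptoglobin, which binds free haemoglobin; -7.70) and Hpx (hemopexin, which binds heme; -7.60). Rbp4 (-7.09) lay below these in size and above the others of the list, of which Ambp (-6.24) was the next. Ttr (-3.23) lay between Igfbp2 (-4.13) and Afm (afamin; -2.69), neighbours named after their values were seen. Tcn2 (transcobalamin, the carrier of vitamin B12; 3.72, SE 0.21) and Apom (apolipoprotein M; 0.87, SE 0.19) passed toward kidney, while Selenop (selenoprotein P; 0.27) and Igfbp1 (-0.16) did not pass. Apom lost its call with 1 average per mouse (adjusted p = 0.266, limma), without mouse 1 (0.205) and without mouse 3 (0.178). With the mouse block 16 of 20 passed toward liver and 3 toward kidney, Selenop among them (adjusted p = 0.0115, limma).

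Of the lipocalins, the family of Rbp4, 8 of 15 listed were tested besides it. Toward liver 4 passed and toward kidney 1, where 8.88% and 5.56% of all genes did. Those toward liver were Mup3 (a major urinary protein; -7.89), Ambp (the precursor of alpha-1-microglobulin; -6.24), Orm1 (orosomucoid; -5.85) and C8g (a chain of complement C8; -1.37). Apom (0.87) passed toward kidney. Lcn2 (-0.62), Ptgds (prostaglandin D synthase; -0.58) and Apod (-0.16) did not pass. Recurring values made up 75% for Lcn2, 100% for Ptgds, 26.7% for Apod, 66.7% for C8g and 54.5% for Apom, and 0% for Mup3, Ambp and Orm1. The call of C8g was lost with 1 average per mouse, at an adjusted p of 0.0906 (limma), and without mouse 3 (0.0775), as was that of Apom. With the mouse block Lcn2 (adjusted p = 5.14e-05, limma) and Ptgds (0.000144) passed toward liver as well. A cDNA probe can bind RNA of near-identical relatives, as among the major urinary proteins and orosomucoids.

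Receptors for filtered carriers went the other way from Rbp4 and Ttr. Lrp2 (megalin; 3.86, SE 0.28, 14.5-fold) and Cubn (cubilin; 5.16, SE 0.31, 35.8-fold) were higher in kidney, with adjusted p of 3.29e-05 and 1.05e-05 (limma). Of 8 listed genes of this uptake, 6 were tested and these 2 passed, where 5.56% of all genes passed toward kidney and 8.88% toward liver. Their partner Amn (amnionless, which brings cubilin to the membrane) was at -0.66, the chaperone Lrpap1 at 0.13, the endosomal chloride transporter Clcn5 at -0.78 and the phosphatase Ocrl at -0.41, and none of these 4 passed. Amn, Ocrl and Clcn5 had recurring values in 86.7%, 87.5% and 53.3% of arrays with a value. Without mouse 2 Amn passed toward liver (-0.39, adjusted p = 0.0344, limma). After centring Lrpap1 passed toward kidney (0.55, adjusted p = 0.0327, limma) and Ocrl stood at 0.01. With the mouse block Clcn5, Amn and Ocrl passed toward liver (adjusted p = 1.31e-05, 4.06e-05 and 0.000961, limma).

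**Figure D4:**
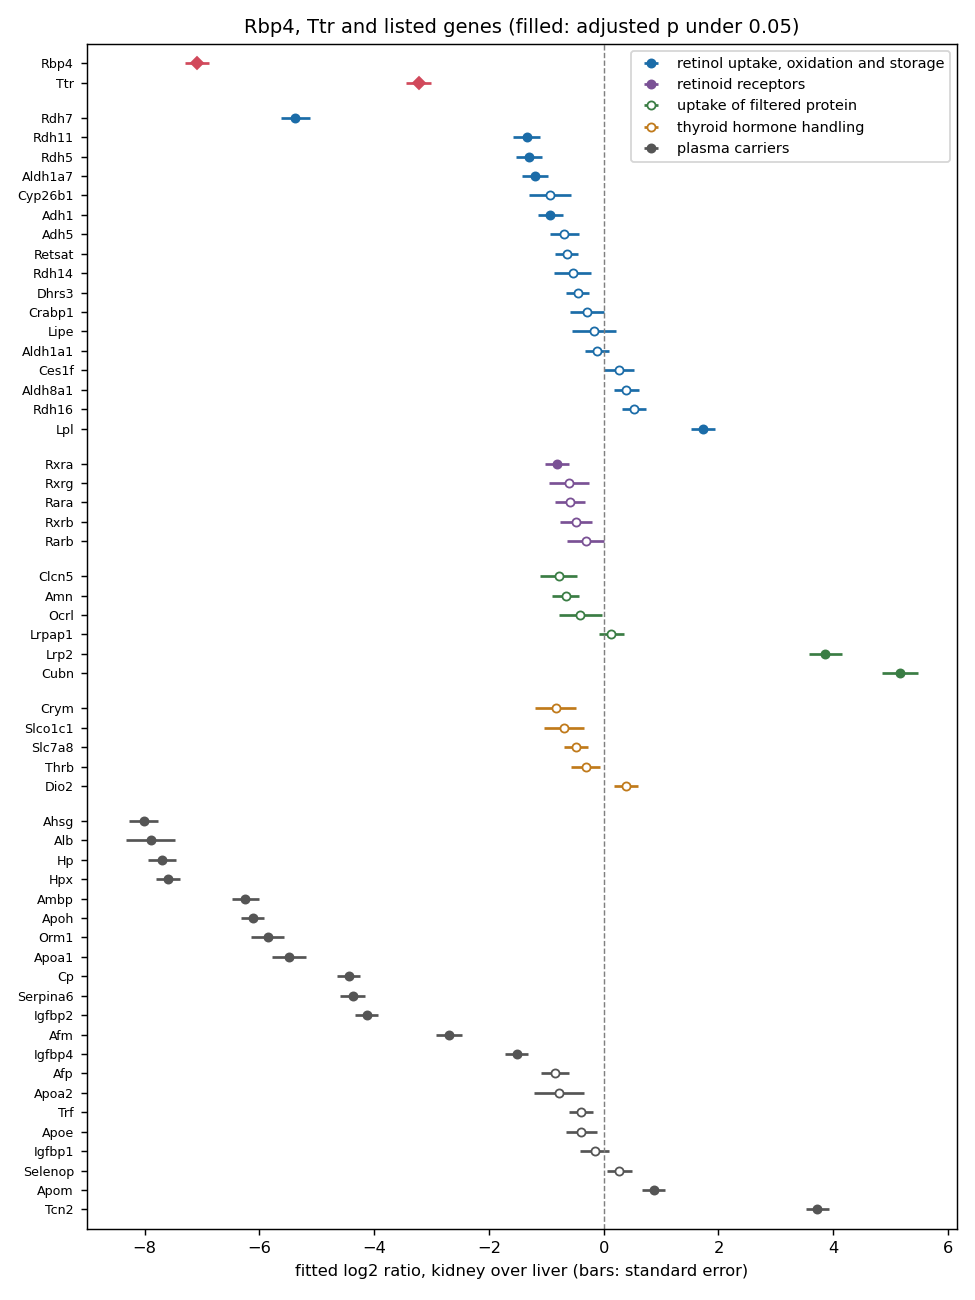
Fitted log2 ratio of kidney over liver (x axis, bars are the standard error) for Rbp4 and Ttr (diamonds) and for the tested genes of 5 lists (circles, filled where the adjusted p was under 0.05). Lrp2 and Cubn lie at 3.86 and 5.16 on the kidney side, while Rbp4 at -7.09 and most plasma carriers lie on the liver side.

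Genes that take up, oxidise, store or break down retinol had ratios from -5.37 to 1.73. Of 42 listed, 17 were tested, 5 passed toward liver and 1 toward kidney, where 8.88% and 5.56% of all genes did. Their ratios had a median of -0.54 against -0.48 over all genes. After centring 4 passed toward liver and 3 toward kidney, with a median of -0.04 against -0.05. Rdh7, a microsomal retinol and steroid dehydrogenase, had the largest difference (-5.37, SE 0.25, 41.4-fold higher in liver, adjusted p = 2.51e-06, limma). Rdh11 (a retinal reductase; -1.34), Rdh5 (11-cis retinol dehydrogenase; -1.31) and Aldh1a7 (an aldehyde dehydrogenase; -1.20) followed. Lpl, the lipoprotein lipase that also frees retinol from chylomicron esters, was higher in kidney (1.73, SE 0.21, adjusted p = 0.000709, limma). Aldh1a1, which makes retinoic acid from retinal, was at -0.11 and Lipe (hormone-sensitive lipase, a retinyl ester hydrolase) at -0.16, and neither passed. Recurring values made up 56.25% for Aldh1a1, a probe treated as dim. Without mouse 2 Lipe passed toward kidney (0.49, adjusted p = 0.0276, limma). With 1 average per mouse 2 passed toward liver and 1 toward kidney, against 4.78% and 2.83% of all genes, and Rdh5 (adjusted p = 0.0521, limma) and Aldh1a7 (0.0928) were among those that lost their calls. Rdh5 and Aldh1a7 also lost them without mouse 1 (0.0595 and 0.0732) or mouse 3 (0.0921 and 0.160), and Rdh11 without mouse 1 (0.114). With the mouse block 9 of 15 passed toward liver and 4 toward kidney.

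Nuclear retinoid receptors had ratios from -0.81 to -0.31. Of 6 listed, 5 were tested, and Rxra, the partner of many nuclear receptors in liver, passed toward liver (-0.81, SE 0.20, adjusted p = 0.0319, limma). Rara (-0.59), Rarb (-0.31), Rxrb (-0.48) and Rxrg (-0.60) did not pass. Recurring values made up 56.25% for Rxrg, a probe treated as dim. The calls depended on how mice entered the fit, since with the mouse block 5 of 5 passed toward liver (limma adjusted p 6.54e-05 for Rara, 0.0073 for Rarb, 0.000333 for Rxrb and 0.000107 for Rxrg), and with 1 average per mouse 0 of 5 did. After quantile normalization 4 of 5 passed toward liver. The call of Rxra was lost after centring (-0.39, adjusted p = 0.228, limma), with 1 average per mouse (0.284), and without mouse 1 (0.198) or mouse 3 (0.211). The list median of -0.59 became -0.17 after centring.

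On the side of thyroid hormone, which transthyretin also carries, no tested gene passed. The 5 tested of 13 listed were Dio2 (a deiodinase that activates thyroxine; 0.39), Slco1c1 (a thyroxine transporter; -0.69), Slc7a8 (an amino acid transporter; -0.49), Thrb (a thyroid hormone receptor; -0.31) and Crym (a cytosolic binder of the hormone; -0.84), with limma adjusted p from 0.142 to 0.352. Of all genes 14.4% passed. Recurring values made up 25% for Dio2, 56.25% for Slco1c1 and for Slc7a8, 60% for Thrb and 84.6% for Crym. Dio2 passed toward kidney after centring (0.81, adjusted p = 0.0163, limma) and without mouse 2 (0.47, adjusted p = 0.0179). With the mouse block 4 of these genes were tested and all 4 passed, Dio2 toward kidney (adjusted p = 0.0018, limma) and Slco1c1 (2.05e-05), Slc7a8 (0.000366) and Thrb (0.0081) toward liver.

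Markers of the organs and of other cells were read beside the members. The hepatocyte and proximal tubule markers had set the sign of all values. Their direction was therefore fixed in advance, and only their sizes are read here. Of 15 hepatocyte markers 14 passed toward liver, with fitted ratios from -8.01 to -1.09 and a median of -6.87, the largest being Ahsg (-8.01), Alb (-7.89), Fgb (a fibrinogen chain; -7.81) and Hpx (-7.60). Fgg (a further fibrinogen chain; -1.09) did not pass, and did after centring (-0.57, adjusted p = 0.0211, limma). Its probe had recurring values in 80% of arrays with a value, against 0% for Fgb, so its ratio is that of a probe treated as dim. Of 8 proximal tubule markers 8 passed toward kidney, from 2.93 to 6.05, namely Kap (6.05), Miox (5.18), Slc13a1 (5.15), Slc22a8 (4.92), Slc6a18 (4.28), Slc22a6 (4.22), Slc22a12 (4.05) and Aqp1 (2.93). Of 5 adipocyte markers, cells that also make Rbp4, Fabp4 (1.54) passed toward kidney, while Adipoq (-0.72), Retn (0.36), Cidec (-0.34) and Lipe did not pass, and the list ran from -0.72 to 1.54. Fabp4 lost its call without mouse 1 (adjusted p = 0.0950, limma) or mouse 3 (0.0898), and Retn passed toward kidney after centring (0.89, adjusted p = 0.0030). Of 3 stellate cell markers, cells that store retinol in liver, Ecm1 (-1.77) passed toward liver and Des (-1.10) and Colec11 (-0.78) did not, though Des did after centring (-0.58, adjusted p = 0.022, limma). The 4 adrenal cortex markers Star (-0.59), Cyp11a1 (-0.61), Cyp21a1 (-0.44) and Hsd3b1 (-0.90) and the red cell markers Alas2 (-0.61) and Slc4a1 (-1.17) did not pass, though Slc4a1 did after centring (-0.65, adjusted p = 0.0083, limma) and with trend and robust variances (0.0484). Recurring values made up 93.3% for Alas2, 78.6% for Slc4a1, 68.75% for Adipoq, 56.25% for Cidec and 53.3% for Des. With the mouse block 2 adipocyte markers, Adipoq and Cidec, 2 of 2 tested stellate, 3 of 3 tested adrenal and 1 of 1 tested red cell markers passed toward liver. The part of these other cells in the values of Rbp4 and Ttr was not tested.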

How the data were processed

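RNA of kidney and liver was measured on 16 two-colour cDNA arrays. Per the labels' protocols, 20 µg of total RNA was labelled with Cy3 or Cy5, slides were scanned with a GenePix 4000A, and GenePix Pro 3.0 gave mean intensities less background, scaled by the authors to a median ratio of 1, which the deposited values of mouse 2 do not have. The deposited values are log2 ratios per the file values, of a base not named in the labels: spacings from an array's most frequent value matched fractions with terms to 10 (tolerance 0.0001) in 140 of 144 cases when read as log2, in 16 as log10 and in 0 as natural log. The dye of each channel is not stated and intensities were not used.

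Gene names came from the platform annotation, with 11723 probes of 1 symbol, 806 of several and 7890 of none, and 11590 symbols were updated by Entrez ID to RefSeq (GRCm38.p6). Repeat hybridisations were averaged, and 6 averages entered limma 3.58.1 (R 4.3.3), with a term for the array kind and no mouse block, over probes measured in 2 or more mice per kind, then over genes. P-values are two-sided and called at 0.05 after Benjamini-Hochberg adjustment over all features tested. The fit was also run on simulated averages drawn independently of each other. They had neither the shared deviations of a mouse nor the shifted medians of mouse 2. The simulation therefore says nothing about the errors of the fit under these. Kidney and liver averages came from the same animals. Their deviations on the kidney over liver scale correlated over 14688 probes (0.591 in mouse 1, 0.795 in mouse 2, 0.585 in mouse 3). A gene raised in both organs of a mouse would move these averages in opposite directions on this scale. The correlation is therefore not evidence that animals pair the samples, and its source was not tested. Alternatives were centring, quantile normalization, filters on missing and on recurring values, trend and robust variances, the mouse as a replicate block, 1 average per mouse, each mouse left out, a single array kind, and medians of hybridisations. Named genes were, in lists of at most 8 tested genes, all, and otherwise up to 4 called genes per direction, by size, and the 2 uncalled ones closest to 0. The members and lists were chosen with earlier results of these data known. Figures were drawn with matplotlib 3.10.9.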

Additional observations from a re-analysis of the deposited data

How the results depend on the processing

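Rbp4 and both Ttr probes kept their direction and call in all 13 settings tried beside the reported one. The filters, the trend and robust variances, the mouse block and 1 average per mouse left the member estimates unchanged. In these settings only the call could change. Rbp4 ran from -7.20 (liver arrays only) to -6.63 (centred), Ttr probe 19 from -4.12 (kidney arrays only) to -3.38 (centred) and probe 2235 from -2.86 (without mouse 1) to -2.17 (centred), with a highest adjusted p of 0.000578, 0.0025 and 0.0101 (limma). Rbp4 stayed below Ttr in the 8 settings where their difference was recomputed, with differences from -4.10 to -3.62. Centring, which was among these settings, cannot change a difference within an array. The number of probes called moved with the setting, from 2358 to 5445 centred, 13609 after quantile normalization, 12188 with mouse as a replicate block, 968 with 1 average per mouse, 774 on kidney arrays and 1543 on liver arrays, and from 700 to 4873 with a mouse left out (4873 without mouse 2). The fixed block leaves out the spread between mice. For genes these numbers were 1306, 3057, 6493, 6174, 683, 454 and 836, and 463 to 2726. Toward kidney 503 and toward liver 803 genes passed as deposited, but 1734 and 1323 centred, which moved the median of all genes from -0.48 to -0.05. Of 98 tested listed genes 49 passed, against 14.4% of all genes, and 84 did after quantile normalization, 80 with the block, 55 centred, 45 on liver arrays, 43 with 1 average per mouse, 40 on kidney arrays and 39 to 58 with a mouse left out. The listed genes include 15 hepatocyte and 8 proximal tubule markers, of which 14 and 8 passed as deposited. Organ markers were listed because they differ between the organs, so the excess over 14.4% is no result about the listed genes. The F between mice for Rbp4 rose past the threshold when centred, to 12.9 on kidney and 50.7 on liver arrays. The cause of these changes was not tested. Some genes that did not pass as deposited changed sign, and of these Lipe and Prox1 passed toward kidney without mouse 2. Centred values were 0.30 for Aldh1a1, 0.26 for Apod, 0.0762 for Cidec, 0.26 for Igfbp1, 0.25 for Lipe, 0.0117 for Ocrl, 0.15 for Prox1, 0.11 for Rarb and 0.10 for Thrb. Igfbp1 was 0.0218 with medians of hybridisations, Lipe 0.0147 on kidney arrays, and Nr1h4 -0.0583 after quantile normalization and -0.0105 on kidney arrays. With a mouse left out, the values ran from -0.25 to 0.0589 for Aldh1a1, -0.98 to 0.0207 for Cyp11a1, -0.38 to 0.12 for Igfbp1, -0.94 to 0.0052 for Lcn2, -0.55 to 0.49 for Lipe, -0.0857 to 0.17 for Nr1h4, -0.76 to 0.25 for Ocrl, -0.63 to 0.36 for Prox1, -1.03 to 0.0021 for Ptgds, -0.59 to 0.22 for Rarb, -1.02 to 0.18 for Star and -0.52 to 0.0206 for Thrb. Depth is unknown, as no intensities were used.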

Other observations

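Of 12 listed transcription factors known for hepatocyte genes, 6 were tested, of which 1 passed toward liver and 1 toward kidney, where 8.88% and 5.56% of all genes did. Nr5a2 (LRH-1, a nuclear receptor of bile acid and cholesterol genes) passed toward liver (-2.23, SE 0.20, adjusted p = 0.000132, limma) and Hnf4a (a nuclear receptor of liver, kidney tubule and gut) toward kidney (1.37, SE 0.21, adjusted p = 0.0025, limma). Foxa3 (-0.90), Cebpa (-0.72), Prox1 (-0.27) and Nr1h4 (the bile acid receptor FXR; 0.06) did not pass. Recurring values made up 75% for Foxa3, 57.1% for Cebpa, 33.3% for Prox1 and 16.5% for Nr1h4. The call of Hnf4a was lost without mouse 1 (1.27, adjusted p = 0.0903, limma), without mouse 3 (1.49, adjusted p = 0.0525) and on the kidney arrays alone (1.25, adjusted p = 0.180). Prox1 passed toward kidney without mouse 2 (0.36, adjusted p = 0.0425, limma) and toward liver with mouse as a replicate block (-0.27, adjusted p = 0.0139).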
